A study of Mus musculus with 8 samples.

Results

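Expression of 7 genes that STAT3 and STAT5 are known to induce was examined in mouse hematopoietic stem cells after granulocyte colony-stimulating factor (G-CSF). The genes were the secreted glycoprotein Lrg1, the kinases Pim1, Pim2 and Pim3, the cytokine oncostatin M (Osm), the fibrinogen-like protein Fgl2 and the interleukin-21 receptor chain Il21r. They were chosen by name from the biology of the pathway, with earlier results of these data known, out of 19938 genes measured. All 7 were on the array, each by a single probe set that carried no other gene symbol, so the choice of the brightest probe set per gene changed nothing for them. Because the members were named with the contrast of G-CSF against PBS in view, their values in that contrast are given as a description and without a test.

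The cells were sorted from bone marrow as KSL SLAM cells, a gate that keeps cells with c-Kit, Sca-1 and CD150 and removes those with lineage markers, CD48 or CD41. In one group the mice had received G-CSF under the skin at 125 mcg per kg, 2 times a day, and in the other PBS, and both were examined at 36 h. Each group had 4 arrays, and each array held RNA pooled from the sorted cells of 5 to 10 mice, amplified before hybridization to the MoGene 1.0 ST array. The sources used here give no strain, sex or age of the mice. The labels call the groups of mice independent, so the spread between arrays is that between pools and hides the spread between the mice within a pool.

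G-CSF binds its receptor, encoded by Csf3r, on granulocyte precursors and on part of the stem and progenitor cells. The receptor activates Janus kinases, which phosphorylate STAT3 and STAT5, and these enter the nucleus and bind DNA at palindromes of the form TTCNNNGAA. Among the genes they induce are feedback inhibitors such as Socs3 and effectors such as the PIM kinases. PIM kinases are serine and threonine kinases that are active once made, so that their activity follows their abundance, and they favour survival and growth of blood cells.

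All values below are log2 intensities of a probe set, on which a difference of 1 is a doubling. Levels of different genes are not compared, since probe sets differ in how brightly they bind. The medians of all genes were alike on the 8 arrays, between 5.74 and 5.89. PBS replicate 3 stood apart, with an interquartile range of 1.68 against 2.42 to 2.80 on the other arrays, and with a correlation to them over all genes of 0.883 to 0.903, while any pair of the remaining arrays reached 0.956 or more. Values without it are given for each member, and for other genes and lists where a call changed or a log2 fold change moved by more than 1.5 times. Genes of the sorting gate and of stem cells did not separate the groups. Kit, the gene of c-Kit, was between 10.24 and 10.49 after G-CSF and between 10.45 and 10.94 after PBS, and 0 of 16 measured stem cell genes passed the threshold (limma adjusted p under 0.05), with 1 higher at an unadjusted p under 0.05. Over all genes, 6.07% were higher and 2.94% lower at that unadjusted level, the background for each such count below. Ly6a, the gene of Sca-1, was not analysed here.

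The DNA just before the start sites of 3 members is shown to place matches to the STAT palindrome and to a shorter, common motif. The windows are the 250 bases before a start site, from RefSeq (GRCm38.p6). The set of windows used here covers 6 of the 7 members and lacks Osm. Capitals mark TTCNNNGAA, which reads the same on both strands, and the shorter TTCC, written GGAA where it lies on the other strand. A GGAA lies inside the 1 TTCNNNGAA shown.
Lrg1, chr17:56121947-56122196, minus strand: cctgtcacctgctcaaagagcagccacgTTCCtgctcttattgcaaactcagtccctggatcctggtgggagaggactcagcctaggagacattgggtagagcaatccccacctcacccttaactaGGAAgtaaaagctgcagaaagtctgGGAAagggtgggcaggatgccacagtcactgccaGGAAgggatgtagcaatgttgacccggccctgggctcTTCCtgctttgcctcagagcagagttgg
Pim1, chr17:29490535-29490784, plus strand: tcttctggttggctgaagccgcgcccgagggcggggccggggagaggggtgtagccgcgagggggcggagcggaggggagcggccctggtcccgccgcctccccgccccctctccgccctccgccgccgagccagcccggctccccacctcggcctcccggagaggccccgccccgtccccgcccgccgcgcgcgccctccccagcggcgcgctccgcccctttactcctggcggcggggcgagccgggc
Fgl2, chr5:21372423-21372672, plus strand: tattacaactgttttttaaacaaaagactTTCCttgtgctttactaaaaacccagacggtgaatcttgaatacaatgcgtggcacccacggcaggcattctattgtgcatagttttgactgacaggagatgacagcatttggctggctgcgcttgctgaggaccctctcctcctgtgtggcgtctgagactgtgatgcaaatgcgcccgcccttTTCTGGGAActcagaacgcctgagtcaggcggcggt
Fgl2 was the only member with a match to TTCNNNGAA, TTCTGGGAA, whose first base lies 36 bases before the start site. Of all 32851 such windows in the table, 7.02% held at least 1 match. The same palindrome with 1 more spacer letter was in 0 of the members' windows and in 5.85% of all windows. The Lrg1 window held 5 matches to TTCC or GGAA, against a median of 3 over all windows. At least 1 such match was in 93.4% of all windows, so TTCC alone does not mark a STAT site. The first of the 2 Pim1 windows held 0, and 82.4% of its bases were G or C, with 36 CpG, against medians of 52.4% and 6 over all windows. The second, chr17:29492835-29493084 on the plus strand, held 3 matches and 4 CpG at 48.0% G or C. The windows of Pim2 and Pim3 held 22 and 31 CpG, whereas those of Lrg1 and Il21r held 2 and 4. A match is a description of the letters, and its absence says nothing of binding outside these windows.

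Lrg1 was the member with the highest difference. LRG1 is a leucine-rich glycoprotein that is secreted by liver in the acute phase and by neutrophils, and that binds the TGF-beta co-receptor endoglin. Its log2 intensity was 10.89, 10.87, 8.87 and 9.32 in G-CSF replicates 1 to 4, and 5.79, 7.45, 6.60 and 6.97 in PBS replicates 1 to 4. The groups did not overlap, and the lowest G-CSF value lay 1.42 above the highest PBS value. The G-CSF arrays themselves fell into a high pair, replicates 1 and 2, and a lower pair, replicates 3 and 4, with a range of 2.02 against 1.66 in the PBS arrays. The log2 fold change was 3.28 ± 0.49 SE, a 9.74-fold difference and the fifth highest of 19938 genes. Without PBS replicate 3 it was 3.25 ± 0.56 SE.

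In the fit over all genes, Lrg1 was the 1 member of 7 past an adjusted p of 0.05 (limma), where 0.0953% of all genes were called higher and 0% lower. That call is counted as a description, and it was lost in 11 of 18 alternative analyses, among them the one without PBS replicate 3, in which 0 of 7 members and 0.12% of all genes were called higher. Over the 18 alternatives its log2 fold change lay between 2.98 and 3.66.

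**Figure D1:**
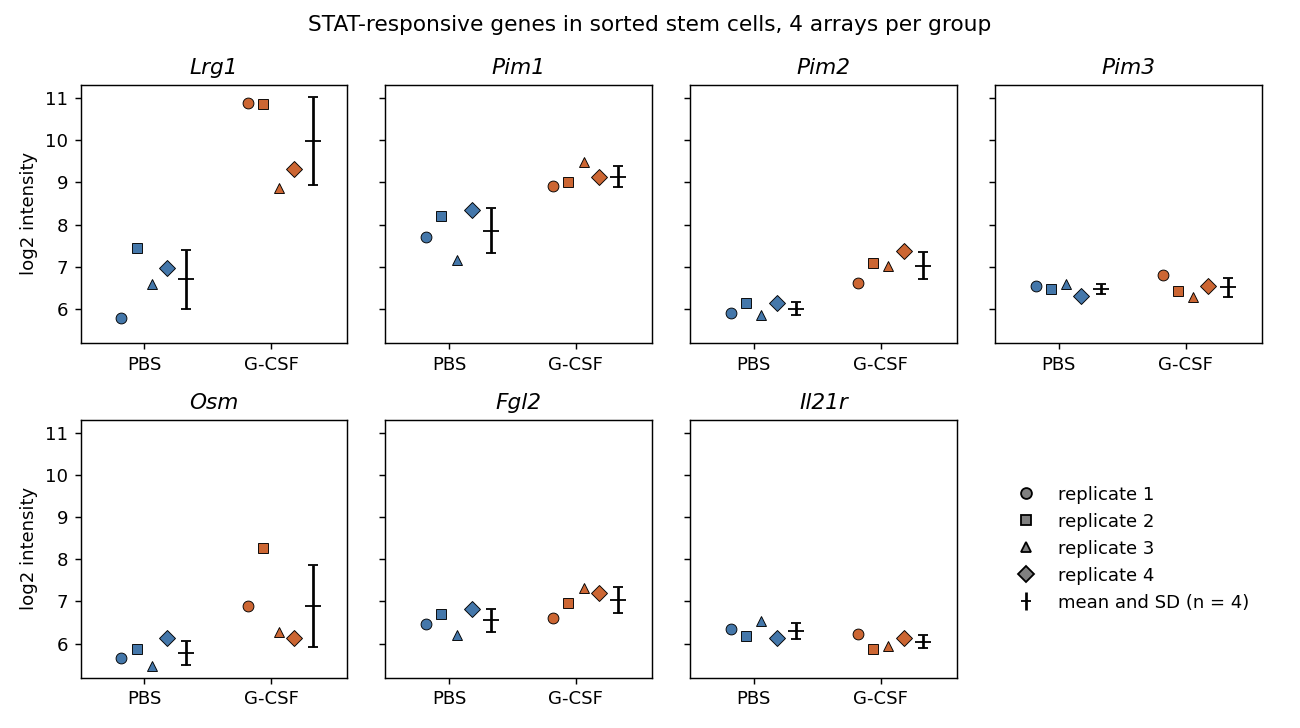
Log2 intensity of each member on the 4 PBS and 4 G-CSF arrays, with replicates by symbol and the mean and SD (n = 4) at the right of each group. The G-CSF values of Lrg1, Pim1, Pim2 and Osm lie above all of their PBS values, those of Osm by 0.0076 only, and the groups overlap for Pim3, Fgl2 and Il21r.

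Of the PIM kinases, Pim1 and Pim2 had means 2.43-fold and 2.03-fold higher after G-CSF, with groups that did not overlap, while the groups of Pim3 overlapped. The difference between the kinases was not tested. Pim1, named for a site of proviral integration in lymphoma and a target of STAT3 and STAT5 in blood cells, had 8.92, 9.02, 9.49 and 9.13 in G-CSF replicates 1 to 4. Its PBS values were 7.71, 8.21, 7.16 and 8.35, so that even the highest lay 0.56 below the lowest G-CSF value. The G-CSF arrays were close together, with an SD of 0.25, and the PBS arrays less so, with an SD of 0.54 that PBS replicate 3 widened at its lower end. The log2 fold change of Pim1 was 1.28 ± 0.26 SE, and 1.05 ± 0.20 SE without PBS replicate 3.

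Pim2, the kinase of this family best known from lymphoid and plasma cells, had 6.62, 7.09, 7.01 and 7.38 in G-CSF replicates 1 to 4 and 5.90, 6.13, 5.84 and 6.13 in PBS replicates 1 to 4. Here the PBS arrays were the tighter group, with an SD of 0.15 against 0.31. The groups were separated by 0.48, and the log2 fold change was 1.02 ± 0.19 SE, or 0.97 ± 0.19 SE without PBS replicate 3.

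Pim3, the third kinase of the family, had 6.80, 6.43, 6.28 and 6.54 after G-CSF and 6.53, 6.48, 6.59 and 6.30 after PBS. Both the highest and the lowest of its 8 values were G-CSF arrays, replicates 1 and 3. Its log2 fold change of 0.04 ± 0.17 SE was smaller than its SE, as was that without PBS replicate 3, 0.08 ± 0.16 SE. The sign was not stable, since the value ran from -0.06 to 0.12 over 18 alternatives.

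Osm had a mean 2.15-fold higher after G-CSF, with groups that barely separated. Oncostatin M is a cytokine of the interleukin-6 family that is made by neutrophils, macrophages and T cells and that signals through gp130 with a partner chain. Its values were 6.90, 8.26, 6.27 and 6.13 in G-CSF replicates 1 to 4 and 5.66, 5.88, 5.47 and 6.12 in PBS replicates 1 to 4. G-CSF replicate 2 stood 1 log2 unit or more above every other array, whereas G-CSF replicate 4 lay only 0.0076 above PBS replicate 4. The log2 fold change was 1.11 ± 0.40 SE. It dropped to 0.65 when G-CSF replicate 2 was left out, and was 1.00 ± 0.45 SE when PBS replicate 3 was.

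Fgl2 and Il21r showed smaller differences, with overlapping groups. FGL2 exists as a membrane enzyme that cleaves prothrombin and as a secreted regulator of immune cells that binds an inhibitory Fc receptor. Fgl2 had 6.62, 6.97, 7.31 and 7.21 after G-CSF and 6.47, 6.69, 6.21 and 6.83 after PBS, so that G-CSF replicate 1 lay within the PBS range. Its log2 fold change was 0.48 ± 0.21 SE (1.39-fold), and 0.36 ± 0.19 SE without PBS replicate 3. Il21r, whose product pairs with the common gamma chain on lymphocytes, had 6.22, 5.88, 5.95 and 6.13 after G-CSF and 6.35, 6.18, 6.55 and 6.13 after PBS. It was the 1 member with a negative log2 fold change, -0.26 ± 0.17 SE, and -0.18 ± 0.14 SE without PBS replicate 3.

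Of the 7 members, 4 had all G-CSF values above all PBS values, where 3.37% of all genes did so, and 0 had all of them below, where 2.78% of all genes did so. The median log2 fold change of the members was 1.02, against -0.07 over all genes. Since the members were named with this contrast known, these counts describe them and support nothing. Of all genes, 301 (1.51%) had a log2 fold change of at least 1, and 4 members were among them.

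**Figure D2:**
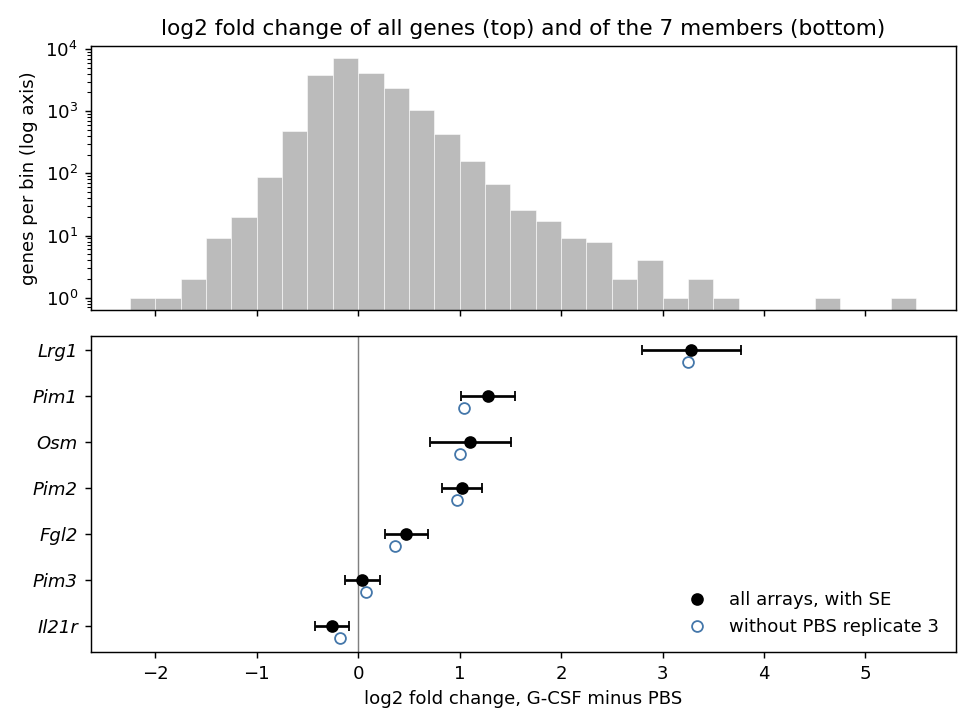
Top, the number of genes per bin of log2 fold change (G-CSF minus PBS) for all 19938 genes, on a log axis, and bottom, the log2 fold change of each member with its SE (filled) and without PBS replicate 3 (open). Lrg1 at 3.28 lies in the sparse upper tail, Pim1, Osm and Pim2 lie between 1.02 and 1.28, and Pim3 and Il21r lie near 0.

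Neutrophil markers were set beside the members, since Lrg1 and Osm are also made by neutrophils. The log2 fold changes of all 25 measured markers were above 0 and their median was 1.77 (1.67 without PBS replicate 3), and 0 passed the threshold over all genes (limma), while 23 were higher at an unadjusted p under 0.05. The mean of the list was 9.73, 9.77, 7.81 and 8.39 in G-CSF replicates 1 to 4 and 7.65, 6.83, 7.09 and 6.89 in PBS replicates 1 to 4. Without PBS replicate 3, 1 of the 25 passed, Csf3r. With all arrays, the markers with the lowest p were Anxa1, Csf3r and Mgst1 (limma adjusted p = 0.0559, 0.0585 and 0.0612). The ranges of S100a8, Ly6g and Stfa2 are given as well. These were not chosen by p, and their levels are not compared with each other. S100a8, a major protein of the neutrophil cytosol, was between 10.83 and 12.91 after PBS and between 12.54 and 13.34 after G-CSF. Ly6g, the antigen by which mouse neutrophils are sorted, was between 4.56 and 7.26 after PBS and between 6.12 and 8.06 after G-CSF. Stfa2, a stefin of neutrophils, was between 3.32 and 3.70 after PBS, below the median of all genes on each of those arrays, and between 5.89 and 10.05 after G-CSF.

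Among the G-CSF arrays, Lrg1 was high where the neutrophil markers were high, at 10.89 and 10.87 in replicates 1 and 2, and lower in replicates 3 and 4. Among the PBS arrays it ran the other way. PBS replicate 1, with the highest marker mean of that group (7.65), had the lowest Lrg1 (5.79), and PBS replicate 2, with the lowest marker mean (6.83), had the highest Lrg1 (7.45). At nearly the same marker mean, 7.65 in PBS replicate 1 and 7.81 in G-CSF replicate 3, Lrg1 was 5.79 and 8.87. Osm was high in the same pair of G-CSF arrays as the markers, at 6.90 and 8.26, and in replicates 3 and 4 it was 6.27 and 6.13, beside 6.12 in the highest PBS array.

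The PIM kinases were arranged differently. The highest Pim1 value was in G-CSF replicate 3, which had the lowest marker mean of its group, and the highest Pim2 value was in G-CSF replicate 4, while G-CSF replicate 1 had the lowest value of its group for both. Fgl2 was also lowest in G-CSF replicate 1 and highest in replicate 3. In PBS replicate 1 and G-CSF replicate 3, the arrays with similar marker means, Pim1 was 7.71 and 9.49, Pim2 was 5.90 and 7.01 and Osm was 5.66 and 6.27. Single markers differed between these arrays in both directions, such as Stfa2 (3.32 and 5.89) and Ly6g (7.26 and 6.12). The pair of arrays was picked after the values were seen. The part of neutrophil RNA in the members' differences was not tested, and with RNA from pooled cells a change in the share of a cell type and a change in RNA per cell cannot be told apart.

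**Figure D3:**
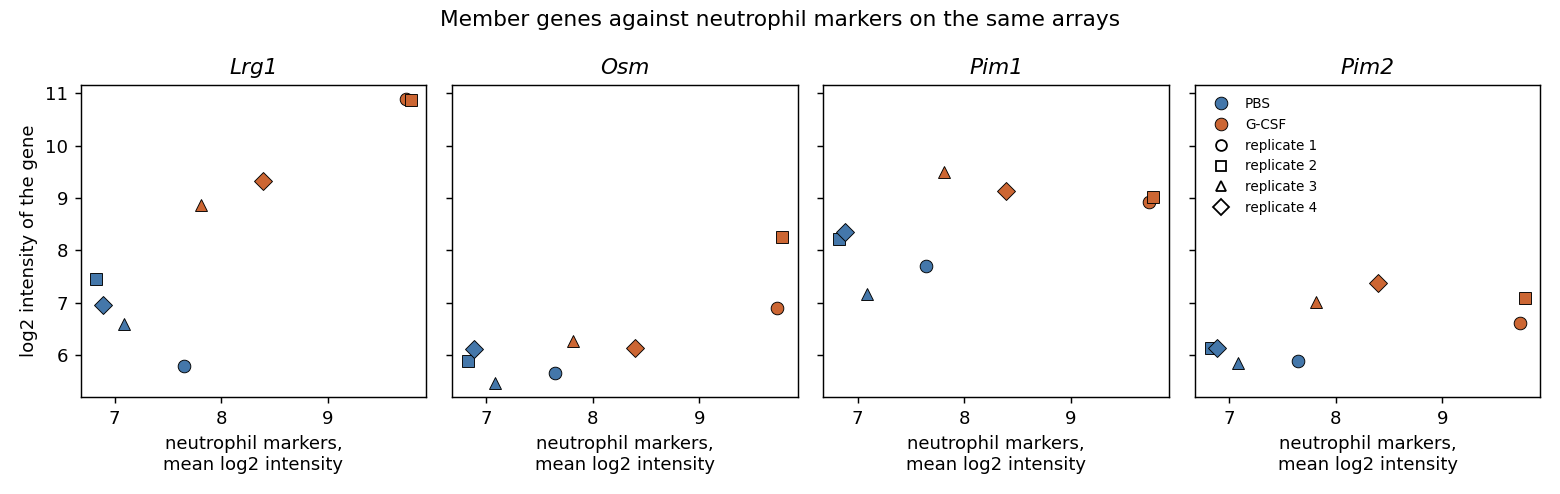
Log2 intensity of Lrg1, Osm, Pim1 and Pim2 on each array against the mean log2 intensity of 25 neutrophil markers on the same array, with groups by colour and replicates by symbol. Lrg1 and Osm are high in the 2 G-CSF arrays with marker means of 9.73 and 9.77, while Pim1 is highest in the array with a marker mean of 7.81 and Pim2 in the array with one of 8.39.

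Markers of other cells that the gate could have let through had medians nearer to 0 than the neutrophil markers. Monocyte and macrophage markers had a median log2 fold change of 0.28 over 19 genes (0.10 without PBS replicate 3), and their means overlapped, between 6.91 and 8.03 after G-CSF and between 6.73 and 7.95 after PBS. Genes of primary granules and granulocyte-monocyte progenitors had a median of 0.81, and 1 of 18 rose, Csf2rb, the shared beta chain of cytokine receptors (1.59 ± 0.21 SE, limma adjusted p = 0.0198). At an unadjusted p under 0.05, 8 of the 18 were higher and 0 lower. The means of that list did not overlap, between 7.57 and 7.95 after G-CSF and between 6.61 and 7.48 after PBS. Without PBS replicate 3, 3 of its genes passed, Csf2rb, Prtn3 and Spi1 (limma adjusted p = 0.0116, 0.0371 and 0.0371). Lymphocyte markers, which bear on Il21r and Pim2, had medians of -0.25 over 16 B cell genes and -0.24 over 18 T and NK cell genes (-0.18 and -0.13 without PBS replicate 3), and 0 of either list passed (limma), with 3 and 1 lower at an unadjusted p under 0.05. The means of both lists were highest in PBS replicate 3, at 5.52 and 5.58, the array on which Il21r was highest too. That array had the narrowest interquartile range, and dim genes of other lists, such as Osmr, Fga and Timp1, were also highest on it. Il21r was not dim there, at 6.55 against a median of all genes of 5.89, whereas Osmr, Fga and Timp1 lay below that median. A link of Il21r to lymphocyte RNA was not tested. Erythroid and megakaryocyte genes had medians of -0.24 over 11 genes and -0.05 over 13 genes, with 0 past the threshold in each (limma), and of -0.33 and -0.09 without PBS replicate 3. At an unadjusted p under 0.05, 0 erythroid and 2 megakaryocyte genes were lower. Of the monocyte and macrophage markers 0 passed, with 6 higher at an unadjusted p under 0.05.

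The chain from receptor to STAT was read from a list of 19 genes without the members, of which 16 were measured. None passed the threshold over all genes (limma), and 4 were higher at an unadjusted p under 0.05. The median log2 fold change was 0.19, and 0.09 without PBS replicate 3. Csf3r, the G-CSF receptor, had 9.31, 9.49, 9.24 and 9.11 after G-CSF and 7.59, 7.96, 8.51 and 7.93 after PBS. Its log2 fold change was 1.29 ± 0.21 SE (limma adjusted p = 0.0585). Without PBS replicate 3 it was 1.46 and passed (limma adjusted p = 0.0125, against 0.00387 to 0.239 over 18 alternatives). Csf3r is a neutrophil gene as well, and it stands in the neutrophil list above.

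Of the STAT genes themselves, Stat3 had 9.04, 9.06, 9.12 and 9.19 after G-CSF, all above PBS values of 8.50, 8.64, 7.51 and 8.83, yet it did not pass (0.73 ± 0.26 SE, limma adjusted p = 0.461). Without PBS replicate 3 it was 0.44. Stat5b had 0.64 ± 0.27 SE and 0.34 without that array, and Stat5a, its close relative, had -0.15 ± 0.18 SE. Jak2, the kinase bound to many cytokine receptors, had 0.21 ± 0.23 SE, and 0.0036 without PBS replicate 3. Pias3, an inhibitor of STAT3, had 0.56 ± 0.20 SE and did not pass either (limma adjusted p = 0.464), with 0.40 without that array.

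Other known targets of STAT3 and STAT5 give the setting for the members. Of 29 measured genes, 3 rose over all genes, 0 fell and 26 did not pass, with a median log2 fold change of 0.31 (0.23 without PBS replicate 3). Values of 20 of the 29 were above 0, and at an unadjusted p under 0.05, 10 were higher and 1 lower. The list mean lay between 7.58 and 7.66 in the G-CSF arrays and between 7.08 and 7.34 in the PBS arrays. Socs3, the feedback inhibitor of the G-CSF receptor, was 7.27, 7.47, 7.55 and 7.75 after G-CSF and 5.99, 6.04, 6.17 and 6.40 after PBS (1.36 ± 0.18 SE, limma adjusted p = 0.0198). It was tight in both groups, and its lowest G-CSF value was in replicate 1, as for Pim1 and Pim2. Il10ra, the ligand-binding chain of the interleukin-10 receptor, rose by 1.94 ± 0.26 SE (limma adjusted p = 0.0198), and Gadd45g, a stress-responsive growth inhibitor, by 1.28 ± 0.18 SE (limma adjusted p = 0.0225).

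The count of 3 was 0 without G-CSF replicate 2, 0 without G-CSF replicate 4 and 1 without PBS replicate 2. Gadd45g did not pass in 8 of 18 alternatives, Il10ra in 5 and Socs3 in 4, while their fold changes stayed positive in all 18. With the probe sets of each gene averaged, Gadd45g and Il10ra passed and Socs3 did not. Bcl3, a regulator of NF-kappa-B, Bcl6, a transcriptional repressor, and Batf, a partner of JUN proteins, had groups that did not overlap and log2 fold changes of 1.70 ± 0.34 SE, 1.49 ± 0.29 SE and 0.89 ± 0.23 SE, and they did not pass (limma adjusted p = 0.125, 0.104 and 0.290). The 1 gene lower at an unadjusted p under 0.05 was Ccnd1, cyclin D1, with -0.64 ± 0.24 SE (limma adjusted p = 0.481). Myc had -0.27 ± 0.18 SE, Ccnd2, the D-type cyclin of blood cells, -0.39 ± 0.29 SE (-0.69 without PBS replicate 3), and Bcl2l1, the survival gene of the BCL2 family, -0.19 ± 0.22 SE (-0.10 without that array). Cish, a STAT5 target in many blood cells, had 0.54 ± 0.22 SE with overlapping groups (limma adjusted p = 0.518). These last 8 genes were picked after their values were seen.

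**Figure D4:**
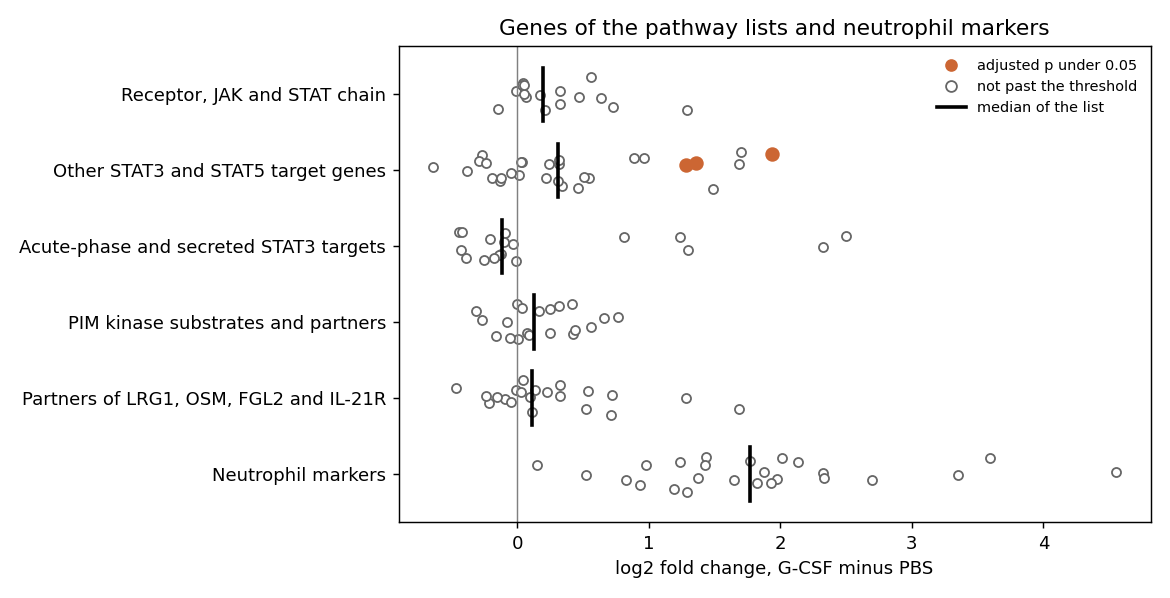
Log2 fold change (G-CSF minus PBS) of each measured gene of 5 pathway lists, members left out, and of the neutrophil markers, with genes past an adjusted p of 0.05 filled and a line at each median. The 3 filled genes, Socs3, Il10ra and Gadd45g, are all STAT targets, and the neutrophil markers have the highest median, 1.77.

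Lrg1 is often grouped with acute-phase proteins, which STAT3 induces in liver, so these were listed too. Of 18 measured genes, 0 passed (limma), 4 were higher at an unadjusted p under 0.05, and 5 had values above 0, for a median of -0.11 (0.0020 without PBS replicate 3). Many genes of the list were dimmer than the median of all genes, such as Saa1 and Saa2, with means of 2.50 and 3.69 after PBS. The 3 with the lowest p were Hp, haptoglobin, with 2.50 ± 0.52 SE, Saa3, an amyloid A protein of macrophages, with 1.30 ± 0.30 SE, and Lcn2, the siderophore binder lipocalin 2, with 2.33 ± 0.53 SE. Their limma adjusted p were 0.159, 0.208 and 0.208. Hp was 10.36, 10.67, 8.77 and 9.62 in G-CSF replicates 1 to 4, and Lcn2 was 12.41, 12.48, 10.60 and 11.25, both with the high and low pairs of arrays seen for Lrg1. Lcn2 is stored in neutrophil granules and is also in the neutrophil list. The fibrinogen genes Fga, Fgb and Fgg, which are liver genes, had -0.26, -0.20 and -0.12 (-0.08, -0.14 and -0.04 without PBS replicate 3) and were picked after their values were seen. They lay below the median of all genes on every array.

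Substrates and partners of PIM kinases showed no member past the threshold. Of 20 measured genes, 4 were higher at an unadjusted p under 0.05 and the median log2 fold change was 0.13. Cdc25c and Cdc25a, phosphatases of the cell cycle that PIM1 is known to phosphorylate, had 0.66 ± 0.20 SE and 0.77 ± 0.33 SE (limma adjusted p = 0.357 and 0.533), the latter 0.42 without PBS replicate 3. Runx3, a transcription factor bound by PIM1, had 0.56 ± 0.23 SE (limma adjusted p = 0.532). Activity of a kinase on its substrates is not measured by their RNA.

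Among binding partners of the other members, 0 of 21 measured genes passed and 5 were higher at an unadjusted p under 0.05, with a median of 0.11. Il4ra, a receptor chain that shares the common gamma chain with Il21r and is a STAT target as well, had 1.68 ± 0.36 SE with groups that did not overlap (limma adjusted p = 0.188). Tgfbr1, the type I receptor of the TGF-beta pathway in which LRG1 acts, had 0.71 ± 0.22 SE (limma adjusted p = 0.373). Fcgr2b, the inhibitory Fc receptor that FGL2 binds, had 0.52 ± 0.17 SE (limma adjusted p = 0.394). Osmr, the partner chain of gp130 for oncostatin M, was between 3.64 and 3.98 after G-CSF and between 3.68 and 4.47 after PBS, and its value was picked after it was seen. All of these lay below the median of all genes, and the highest was PBS replicate 3. The log2 fold change was -0.24, and -0.07 without that array.

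The genes whose pattern was nearest to that of Lrg1 and Pim1 were found by the root mean square difference between profiles over the 8 arrays, each centred on its own mean. Nearest to Lrg1 was Lipg, endothelial lipase, at 0.55. It was lowest in G-CSF replicate 3, at 5.73, and between 7.31 and 8.001 in the other G-CSF arrays, and between 4.25 and 4.47 in the PBS arrays. Then came S100a6 at 0.81, Tgfbi at 0.82, and the granule genes Mmp8 and Ltf at 0.84 and 0.85, which are both in the neutrophil list. Nearest to Pim1, which had a smaller range than Lrg1, were the zinc transporter Slc30a4 at 0.19, the kinase gene Vrk3 at 0.21, proteinase 3 (Prtn3) at 0.23, and the interferon receptor chain Ifnar2 and the interferon-induced Ifitm1, both at 0.24. Since all G-CSF values of Lrg1 and Pim1 lay above their PBS values, genes chosen for a like profile share that order, and no test is given of them.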

How the data were processed

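Arrays of 4 G-CSF and 4 PBS samples were compared. The authors deposited linear intensities, 1 for each probe set on each array, which the submitters' processing notes credit to RMA. Which RMA software and settings were used is not given in the sources used here. The intensities ran from 2.15 to 16163, and log2 was taken before each test. Of 35556 probe sets, 21789 carried 1 gene symbol, 1621 several and 12146 none, per the platform annotation, and identifiers of 21698 of the first were found in the RefSeq table (GRCm38.p6, names only). The brightest probe set per gene was kept, giving 19938 genes with no filter on dim genes. No scanner file was read, so detection calls, scan dates and another background correction could not be had, and the number of arrays limits the precision.

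The groups were set against each other by lmFit and eBayes of limma 3.58.1 (R 4.3.3), 2-sided. P-values were adjusted over all genes (Benjamini-Hochberg) and called at 0.05. The script was first tested on simulated data. The members, the 13 gene lists and the tests were chosen with earlier results of these data known. The text names the members, Csf3r, Stat3, Stat5a, Stat5b, Jak2, Socs3, and the 5 genes nearest to Lrg1 and to Pim1. From each pathway list it names the genes past the threshold or else up to 3 with the lowest p. From the lists of cell markers it names genes past the threshold and the neutrophil markers with the lowest p. Other cell markers, such as Kit and Ly6g, were not chosen by that rule. The nearest genes exclude histones, microRNAs, snoRNAs, antigen receptor segments and genes without a proper name. Alternatives were array weights, another moderation of variances, a replicate block, the brighter genes, quantile normalization, median centring, an offset of 16, other choices of probe sets, and each array left out.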

Additional observations from a re-analysis of the deposited data

Results flagged for a closer look

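The mean of the monocyte and macrophage markers was 7.951 in PBS replicate 1 and between 6.732 and 6.935 in the other PBS arrays, a gap of 0.833 of the group's range. It was the 1 value that stood apart among 30 groups of 4 arrays examined (the members and 8 lists of cell markers), and chance alone sets about 1 in 20 such groups apart. On that array Lrg1 was 5.79, the lowest of its 8 values, while Pim1 at 7.71 and Pim2 at 5.90 lay inside the PBS range. No member was set apart in either group.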

How the results depend on the processing

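Of the 7 members, 6 kept the sign of their log2 fold change in all 18 alternatives, and none moved by more than 1 SD between replicates. With each array left out in turn, Lrg1 ran from 2.98 to 3.66, Pim1 from 1.05 to 1.44, Pim2 from 0.91 to 1.16, Osm from 0.65 to 1.36, Fgl2 from 0.36 to 0.61, Il21r from -0.32 to -0.18 and Pim3 from -0.06 to 0.12. The 1 member called, Lrg1, was not called (0 members) after quantile normalization (PBS replicate 3 kept or left out), after median centring, with 16 added before log2 and with all probe sets, and leaving out arrays gave 0 to 1. It was lost without PBS replicates 1, 3 and 4 and without G-CSF replicates 1, 2 and 4. The count over all genes, 19, was 40 with array weights (3 of them lower), 10 after quantile normalization and 0 with all 35556 probe sets (2743 at an unadjusted p under 0.05, lowest limma adjusted p = 0.0615), and leaving out arrays gave 3 to 31. The count of other STAT targets, 3, was 0 with all probe sets and 0 to 4 with arrays left out. In the receptor, JAK and STAT chain 1 gene, Csf3r, passed with array weights and after quantile normalization without PBS replicate 3, and 0 to 1 with arrays left out. Leaving out arrays gave 0 in the acute-phase, PIM substrate and partner lists. Jak2 was -0.034 after quantile normalization without PBS replicate 3. The cause of these changes was not tested. The run with all probe sets changed both the number of tests and the moderation of variances.

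With the replicate number as a replicate block, 23 genes and 1 acute-phase gene, Hp, passed (limma adjusted p = 0.0117), and Gadd45g did not (limma adjusted p = 0.0894). Deviations of same-numbered arrays from their group means correlated at -0.03, 0.06, 0.06 and 0.14 over all genes for numbers 1 to 4, against -0.22 to 0.27 between other arrays. The numbers were therefore not taken as pairs, and not every array correlated best with its own number.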
